A study of Mus musculus with 6 samples.

Results

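Centromere, kinetochore and spindle checkpoint genes were examined in cultured E0771, a carcinoma line of the mouse mammary gland. The 45 genes were picked out of the table by their symbols: Cenpa to Cenpx where the symbol has a single letter after Cenp, the Ndc80, Mis12, Knl1 and Ska genes, the Bub and Mad checkpoint genes, Ttk, Zwint, Zw10, Zwilch, the shugoshins Sgo1 and Sgo2a, Spag5 and Knstrn. They are 45 of 55571 gene entries in the count table, and all 45 passed the filter on low counts that left 13594 genes for testing. RNA was sequenced from 3 libraries of cells with a vector control and 3 libraries of cells carrying wild-type Malt1 (Malt1-WT), a paracaspase that acts upstream of NF-kB. Both groups are the same cell line, in what the series title calls a basal condition, and no stimulus is stated. The labels do not state whether the introduced gene sits in a clone or a pool, which promoter drives it, or whether replicate libraries stem from separate cultures, so p-values measure only the spread between these libraries, which may be technical.

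The kinetochore is the protein structure built on the centromere of each chromosome, and it ties the chromosome to spindle microtubules during mitosis. A nucleosome with the histone variant CENP-A marks the centromere. The constitutive centromere-associated network (CCAN, or inner kinetochore) binds that nucleosome, and the KMN network of Knl1, Mis12 and Ndc80 complexes (the outer kinetochore) binds microtubules. Unattached kinetochores recruit the Bub and Mad proteins, which form the spindle assembly checkpoint and hold back the anaphase-promoting complex (APC/C) until all chromosomes are attached. Many of these transcripts are made mostly late in the cell cycle. In RNA from whole cultures, a smaller share of dividing cells and less RNA per dividing cell cannot be told apart.

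Total counts ranged from 17601656 to 20543778 per library. Malt1 had 517, 633 and 611 counts in the vector control against 5526, 6176 and 5087 in Malt1-WT, which matches the labels, although introduced and endogenous transcripts share 1 count. Of 8 simple epithelial carcinoma markers only Krt8 and Epcam passed the filter, while Krt18, Krt19, Krt7, Cdh1, Cldn4 and Cldn7 each had a group mean under 0.4 CPM (counts per 1000000, scaled by TMM) in both groups. The summed level of this list was 73.4 to 77.6 CPM in the vector control against 64.5 to 69.9 CPM in Malt1-WT. The 8 leukocyte markers (3 tested) summed to 17.2 to 20.5 and 14.3 to 16.5 CPM, with Ptprc and Tyrobp at or near 0, and the tested ones went in both directions: Lyz2 (-2.33) and Fcer1g (-0.28) were lower and Adgre1 was higher (2, 1 and 0 counts against 21, 32 and 28). The 8 fibroblast and endothelial markers (6 tested), summed to 200.2 to 211 and 149 to 160.0 CPM, most of it Pdgfra. Of the 6, 2 were lower, 1 was higher (the endothelial marker Pecam1, 1.02, from 4.77 to 9.69 CPM) and 3 did not pass. The 3 sums were lower in Malt1-WT although single markers were higher, and the part of these markers in the results on the kinetochore genes was not tested.

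The genes fell nearly as one set, but by very unequal amounts. In Malt1-WT, 42 of 45 were lower and 0 were higher at an adjusted p under 0.05 (edgeR quasi-likelihood test, Benjamini-Hochberg over all 13594 genes), against 30.2% of all tested genes lower and 31% higher (61.2% in either direction). The 3 that did not pass were Zwint, Cenpj and Cenpv. With other tools, 42 were lower and 0 higher in limma-voom and in DESeq2. The median log2 fold change was -1.09 over the members and -0.00 over all tested genes. A decrease of at least 2-fold that also passed the test was seen in 26 members (57.8% of them), against 4.77% of all tested genes. All 3 Malt1-WT libraries lay below all 3 vector control libraries in 42 members, against 32% of tested genes.

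Added together, member transcripts took 0.334%, 0.335% and 0.328% of all counts in the vector control libraries and 0.160%, 0.160% and 0.160% in Malt1-WT. Their summed level in Malt1-WT was 50.7% of that in the vector control. Per kilobase of annotated exon, the highest levels in the vector control were those of Zwint (55.6 CPM per kilobase), Bub1 (52.0) and Bub1b (49.0), and the lowest were those of Nsl1 (0.672), Cenpp (2.26) and Cenpk (2.65). The length used is the union of all annotated exons, which can exceed that of the transcripts made, so this order is approximate. In Malt1-WT, Zwint was at 58.3, Bub1 at 32.4 and Bub1b at 12 CPM per kilobase. Bub1 and Bub1b were thus near each other in the control and apart in Malt1-WT.

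**Figure D1:**
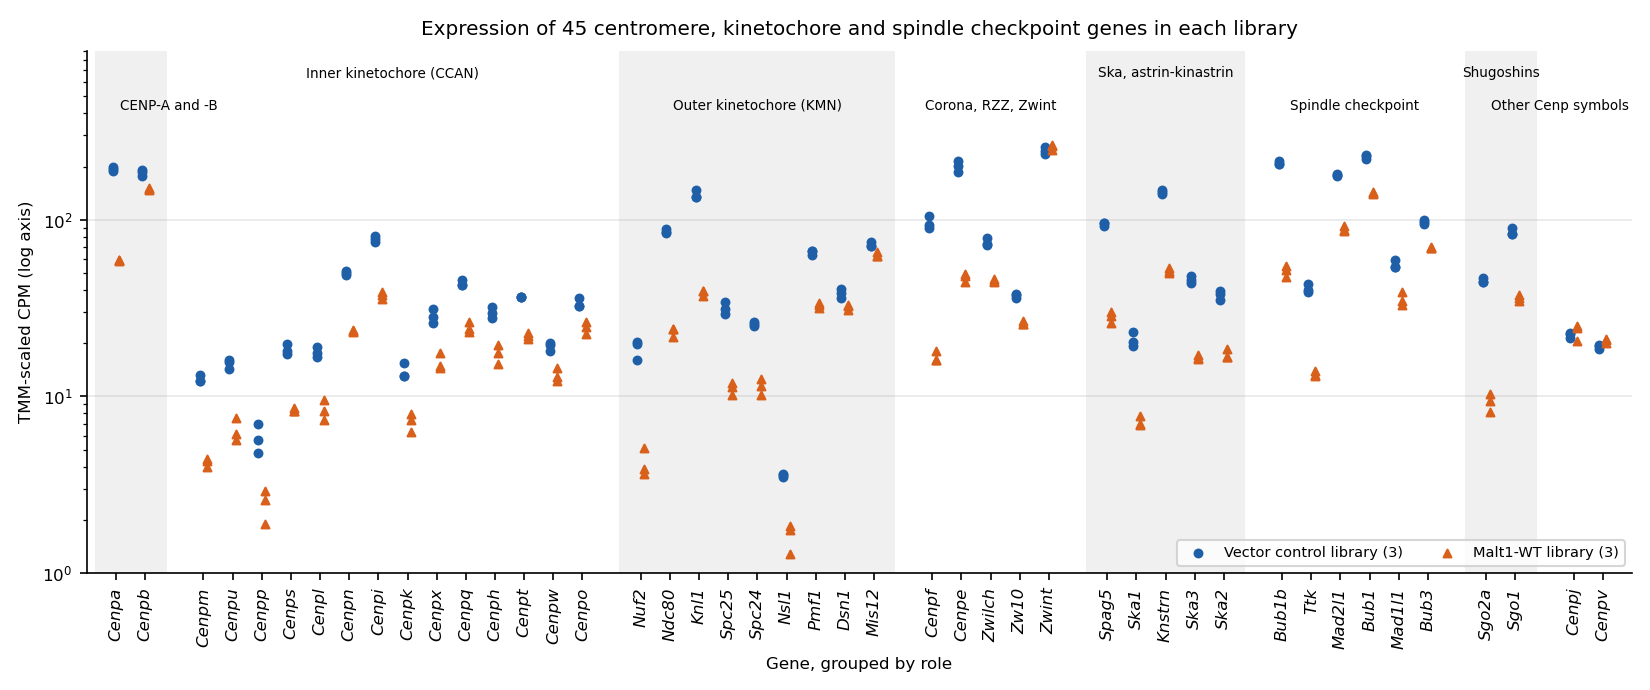
Expression of each of the 45 genes in TMM-scaled CPM (log axis), grouped by role along the horizontal axis. Circles are the 3 vector control libraries and triangles the 3 Malt1-WT libraries; the symbols of the 2 groups lie apart for 42 genes that fell and for Cenpv, and overlap for Zwint and Cenpj.

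Of the centromeric chromatin genes, Cenpa, which encodes the histone variant that marks the centromere, was at 198, 193 and 189 CPM in the vector control against 58.4, 59.2 and 58.8 CPM in Malt1-WT. The groups were far apart and the Malt1-WT libraries nearly equal (log2 fold change -1.72, SE 0.0394, edgeR adjusted p = 2.66e-38). Cenpb, which encodes the protein that binds a short DNA motif in centromeric satellite repeats, was at 178, 191 and 187 CPM and at 150, 147 and 149 CPM. Its decrease was small but outside the spread of the libraries (-0.31, SE 0.0353, adjusted p = 4.84e-11 in edgeR). Per kilobase of annotated exon, Cenpa was at 33.0 and Cenpb at 37.9 CPM in the vector control. These values rest on exon unions of 5860 and 4886 bases, which can be longer than the transcripts made. Whether the 2 genes had like transcript levels therefore cannot be told from them.

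The inner kinetochore genes among the members all fell, none by as much as Cenpa. CENP-C and CENP-R, also of the inner kinetochore, are listed under other symbols and are given with the related lists. The 14 member genes had a median of -1.0 and a range from -1.56 for Cenpm to -0.46 for Cenpo. Cenpm, a subunit with the fold of a small GTPase, had 221, 269 and 244 counts in the vector control against 79, 86 and 68 in Malt1-WT (12.5 ± 0.603 to 4.23 ± 0.228 CPM, SD, n = 3 per group, edgeR adjusted p = 1.63e-15). Cenpu, a subunit that brings Polo-like kinase to the kinetochore, had 282, 329 and 287 counts against 134, 123 and 97 (log2 fold change -1.25, SE 0.115, edgeR adjusted p = 1.03e-13). In both genes the lowest control library was well above the highest Malt1-WT library.

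Subunits that sit together in the inner kinetochore fell by similar amounts in some assemblies. Cenpl and Cenpn, which bind each other and contact the CENP-A nucleosome, were at -1.09 and -1.09. Cenph, Cenpi and Cenpk spanned 0.28 on the log2 scale, from -1.06 for Cenpi to -0.78 for Cenph. The histone-fold genes Cenps, Cenpt, Cenpw and Cenpx spanned 0.59, from -1.14 for Cenps to -0.56 for Cenpw. Cenpo, Cenpp, Cenpq and Cenpu spanned 0.79. Cenpp rested on few counts, 86, 115 and 140 against 34, 58 and 44. Cenpk, the third lowest member per kilobase, had 279, 267 and 262 counts against 131, 160 and 107.

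Several inner kinetochore genes share exon bases with a gene on the opposite strand in GENCODE M21, and counting used a strand setting not given in the sources used here. Cenpu shares 26.7% of its exon bases with Primpol, which had a log2 fold change of 0.08 (edgeR adjusted p = 0.513). Cenpo shares 19.0% with Adcy3, which was higher in Malt1-WT (0.48, edgeR adjusted p = 6.15e-14). Cenpp shares 12.3% with Ippk (0.14, adjusted p = 0.11 in edgeR). None of these 3 neighbours passed the test as lower. Sharing under 5% was also found for Cenpk with Ppwd1 (4.45%, log2 fold change -0.49) and Cenpq with Mut (3.65%, -0.67), and both of those neighbours were lower.

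In the outer kinetochore all 9 genes fell (median -1.18, 6 by at least 2-fold), with a median of -1.69 for the 4 genes of the Ndc80 complex and -0.63 for the 4 of the Mis12 complex. Nuf2 and Ndc80 encode the partners whose globular heads bind the microtubule. Nuf2 (chromosome 1, 169497934 to 169531464, minus strand, GRCm38) had 358, 325 and 406 counts in the vector control against 69, 73 and 87 in Malt1-WT, or 18.6 ± 2.33 and 4.20 ± 0.779 CPM (SD, n = 3 per group). Its log2 fold change was -2.16 (SE 0.126, edgeR adjusted p = 7.82e-21). Ndc80 was at 83.6, 88.1 and 85.2 CPM and then at 24.2, 24.0 and 21.7 CPM (-1.88, SE 0.0567, edgeR adjusted p = 4.77e-33). Spc25 (-1.51) and Spc24 (-1.18), which anchor the complex to the rest of the kinetochore, fell less. Knl1, the scaffold on which Bub proteins dock, was at 147, 135 and 134 CPM against 36.8, 39.4 and 39.7 CPM (-1.84).

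The Mis12 complex links the inner kinetochore to Ndc80. Its genes Nsl1 (-1.12) and Pmf1 (-1.0) were near the middle of the members, while Dsn1 (-0.26, edgeR adjusted p = 4.56e-04) and Mis12 (-0.19, edgeR adjusted p = 4.71e-04) were the smallest decreases that passed the test. Mis12 was at 71.3, 74.4 and 71.0 CPM in the control and 62.0, 65.4 and 62.4 CPM in Malt1-WT. The ratio of Ndc80 to Mis12 counts within a library was 1.17, 1.18 and 1.2 in the vector control against 0.390, 0.366 and 0.348 in Malt1-WT. That ratio does not depend on library scaling. Mis12 shares 7.69% of its exon bases with Derl2 on the opposite strand, which was higher in Malt1-WT (0.23, edgeR adjusted p = 4.71e-05). Nsl1 had the fewest counts of all members, 63, 73 and 73 against 33, 35 and 22, and its 95% interval was correspondingly wide (-1.58 to -0.67).

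**Figure D2:**
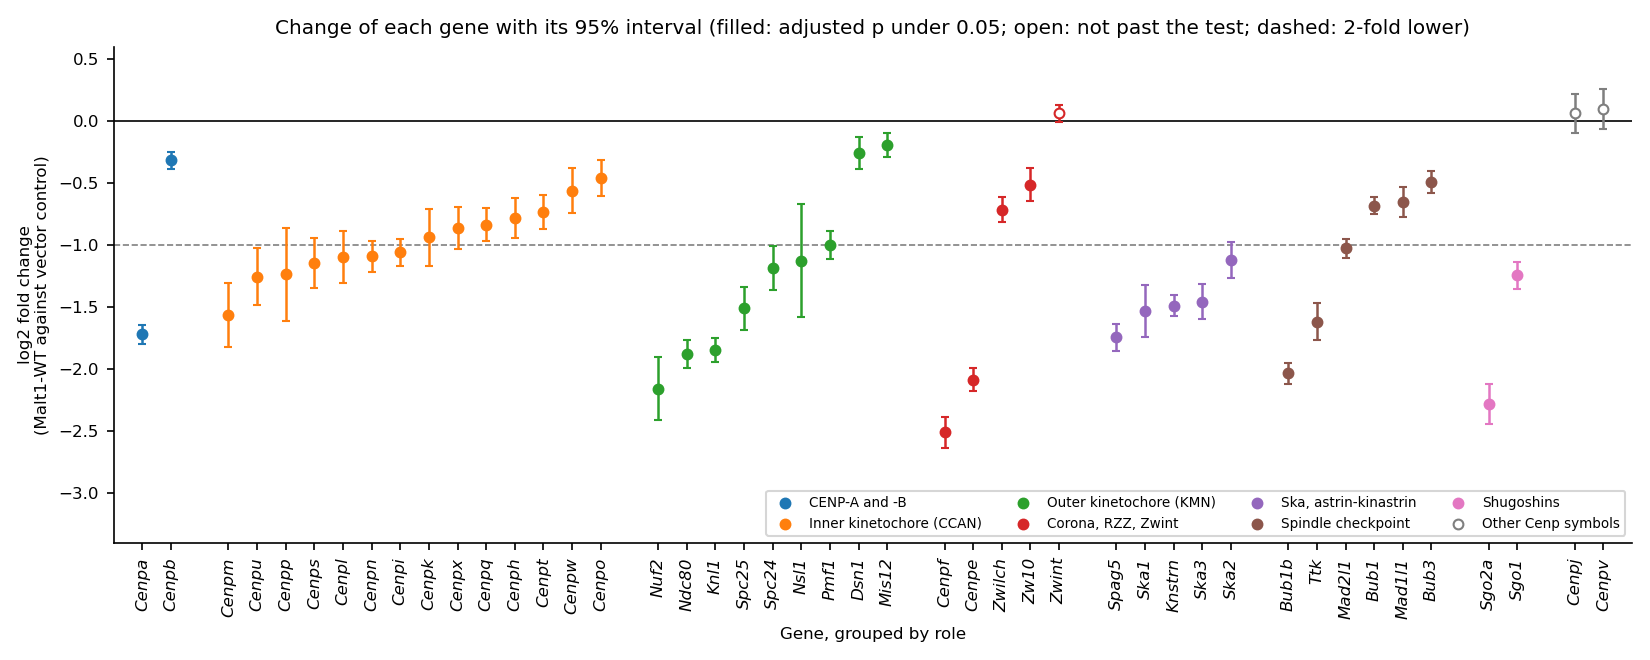
Log2 fold change of each gene (Malt1-WT against vector control) with its 95% interval from the edgeR fit, grouped by role; filled points passed an adjusted p of 0.05, open points did not, and the dashed line marks a 2-fold decrease. Cenpf is lowest at -2.51, and Zwint, Cenpj and Cenpv are the open points near 0.

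The corona and its associated genes held both the largest decrease and a gene with no detected one. Cenpf, a large coiled-coil corona protein whose levels peak in G2 and mitosis, lies on chromosome 1 (189640606 to 189688086, minus strand). It was at 104, 92.9 and 90.2 CPM in the vector control against 16.1, 18.1 and 16.1 CPM in Malt1-WT. This difference (-2.51, SE 0.0632, edgeR adjusted p = 4.25e-36) was the 34th largest decrease of all tested genes. Cenpe, the kinesin that moves chromosomes toward the metaphase plate, went from 214, 202 and 186 CPM to 48.2, 49.1 and 44.6 CPM (-2.08, SE 0.0461, edgeR adjusted p = 1.75e-37). Zwilch (-0.71) and Zw10 (-0.51), subunits of the RZZ complex that brings dynein and the Mad proteins to kinetochores, fell less.

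Zwint, which encodes a partner of Knl1, was at 235, 259 and 246 CPM in the vector control against 260, 249 and 266 CPM in Malt1-WT, so the groups overlapped. Its log2 fold change was 0.07 (95% interval -0.00 to 0.13, edgeR adjusted p = 0.0916). The Zwint log2 fold change passed as higher without vector control replicate 2 (0.10, adjusted p = 0.0209 in edgeR) and without Malt1-WT replicate 2 (0.08, adjusted p = 0.0472), and its sign turned (-0.011) with scaling by library size only. The adjusted p ranged up to 0.804 over the alternatives other than the test against a 1.5-fold change. No setting gave a decrease of Zwint that passed the test. The ratio of Cenpe to Zwint counts was 0.816 ± 0.0850 in the vector control against 0.184 ± 0.0147 in Malt1-WT (SD, n = 3 per group).

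The genes that stabilise the attachment of microtubules fell together. All 5 of the Ska and astrin-kinastrin genes were at least 2-fold lower, with a median of -1.49, and together they kept 35.3% of their control level. Spag5, which encodes the spindle protein astrin, had 91.7, 96.1 and 95.7 CPM against 28.5, 30.2 and 26 CPM (-1.74, SE 0.0541, edgeR adjusted p = 1.69e-32). Its partner Knstrn was at -1.49 and shares 2.38% of its exon bases with Gm14091 on the opposite strand, which was also lower (-1.61). Ska1, which carries the microtubule-binding part of the Ska complex, had 417, 390 and 408 counts against 124, 138 and 133 (-1.53, SE 0.103, edgeR adjusted p = 1.59e-18). Ska3 was at -1.45 and Ska2 at -1.12. Ska3 shares 2.88% of its exon bases with Sap18 on the opposite strand, which was lower (-0.18, edgeR adjusted p = 6.25e-05). Ska2 shares exon bases on the opposite strand with Gm11491 and Zwilch with Lctl, and both neighbours had at most 6 counts in any library.

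The 6 spindle checkpoint genes all fell (median -0.85), again unequally. Bub1b, which encodes the BubR1 protein of the mitotic checkpoint complex (chromosome 2, 118598211 to 118641591, plus strand), was at 208, 207 and 214 CPM in the vector control against 47.5, 51.9 and 54.6 CPM in Malt1-WT. Its log2 fold change of -2.03 (95% interval -2.12 to -1.95, edgeR adjusted p = 3.49e-40) was the lowest of the group. Ttk, the Mps1 kinase that starts checkpoint signalling, followed with 40.0, 43.5 and 39.0 CPM against 13.0, 13.1 and 13.9 CPM (-1.61, SE 0.0756, edgeR adjusted p = 6.86e-25). Mad2l1 was at -1.02, Mad1l1 at -0.65 and Bub3 at -0.49.

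Bub1, the kinase related in sequence to BubR1 and also on chromosome 2 (127801122 to 127831865, minus strand), fell less. It was at 228, 232 and 219 CPM in the vector control against 143, 139 and 141 CPM in Malt1-WT (-0.68, 95% interval -0.75 to -0.61, edgeR adjusted p = 1.61e-23). Its interval lies well apart from that of Bub1b. The ratio of Bub1b to Bub1 counts within a library was 0.911, 0.890 and 0.978 in the vector control against 0.332, 0.373 and 0.386 in Malt1-WT. Every Malt1-WT library thus had a ratio below every vector control library. The difference between the 2 genes was described by these values and not tested by itself.

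The shugoshins protect centromeric cohesion until anaphase. Sgo2a (chromosome 1, 57995971 to 58025899, plus strand) went from 44.5, 46.8 and 44.6 CPM to 8.11, 10.3 and 9.42 CPM (-2.28, SE 0.0809, edgeR adjusted p = 5.02e-30), the second largest decrease of the members. Sgo1 went from 89.9, 82.6 and 83.5 CPM to 36.2, 34.6 and 37.3 CPM (-1.24, SE 0.0523, edgeR adjusted p = 7.79e-27). Sgo2a shares 35% of its exon bases with Kctd18 on the opposite strand. Kctd18 had 152, 203 and 157 counts in the vector control against 156, 190 and 169 in Malt1-WT, with no call (0.10, edgeR adjusted p = 0.489).

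The remaining 2 genes carry a Cenp symbol but act elsewhere or less centrally. Cenpj encodes a protein of centriole assembly. It was at 22.5, 22.7 and 21.5 CPM against 24.9, 20.7 and 24.3 CPM, with overlapping groups (0.06, 95% interval -0.10 to 0.22, edgeR adjusted p = 0.506), and the sign of the Cenpj log2 fold change turned (-0.012) with scaling by library size only. Cenpv was at 18.5, 19.3 and 19.6 CPM against 21, 20.1 and 20.8 CPM. The Cenpv libraries did not overlap, yet the difference did not pass the test (0.10, 95% interval -0.06 to 0.26, edgeR adjusted p = 0.276). The intervals of both genes leave out a decrease as large as that of Mis12.

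**Figure D3:**
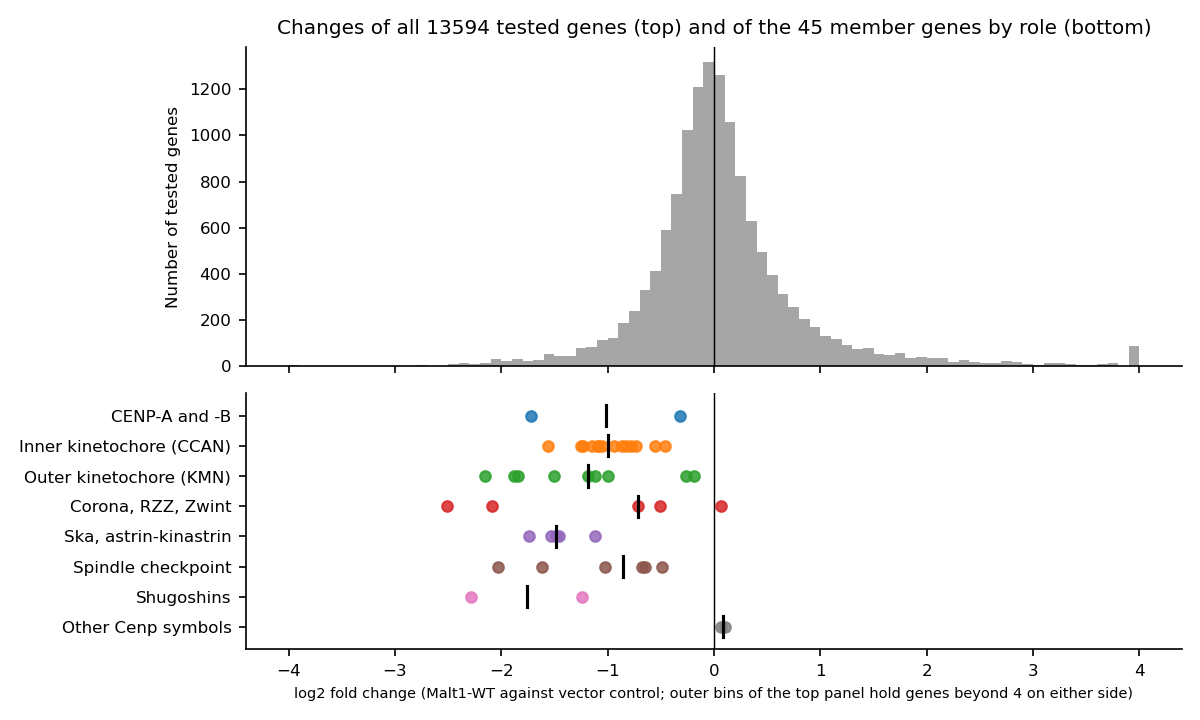
Top, number of tested genes by log2 fold change (Malt1-WT against vector control, bins of 0.1, with values beyond 4 on either side placed in the outer bins); bottom, the 45 members by role on the same axis, 1 point per gene, with a bar at each median. The histogram centres near 0, while 42 members lie to the left of it.

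Ranked by decrease among all 13594 tested genes, 4 members were in the first 100, 11 in the first 250 and 19 in the first 500, which is 3.68% of tested genes. The 4 were Cenpf, Sgo2a, Nuf2 and Cenpe. In a test against a change of 1.5-fold (edgeR glmTreat), 34 members were lower at an adjusted p under 0.05, against 6.33% of all tested genes. The 8 members that passed the ordinary test but not this one were Mad1l1, Cenpw, Cenpo, Dsn1, Zw10, Bub3, Cenpb and Mis12. In the authors' deposited table, whose t statistic is 0 for every gene with an absolute log2 fold change under 1, 12 members had an adjusted p under 0.05 and were lower, against 0.72% of genes with a count. That share is over 27482 genes, without the filter on low counts. Genes with smaller changes could not be called there, so the 12 cannot be set directly beside the counts from the tests above. Log2 fold changes in the authors' deposited table differed from those given here by at most 0.0196 for any member, and all 45 had the same sign.

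Lists of genes that work with the kinetochore were counted in the same fit, in which 30.2% of all tested genes were lower and 31% higher. All 5 genes of the chromosomal passenger complex and its recruiting kinase haspin fell (median -1.45), with Birc5, which encodes survivin, at -1.71, the borealin gene Cdca8 at -1.56 and Haspin at -1.45. Among CENP-A loading and further centromere genes, 6 of 9 tested fell, 0 rose and 3 did not pass (median -0.33). Oip5 (-1.30) and Mis18a (-1.18), which encode subunits of the Mis18 complex, were among those that fell. Hjurp, which encodes the CENP-A chaperone itself, was at 275 ± 6.14 and 283 ± 6.48 CPM (SD, n = 3 per group, log2 fold change 0.04, edgeR adjusted p = 0.249), and Rsf1 (-0.03) and Smarca5 (-0.02) did not pass either. Cenpc1, the symbol under which the table gives the inner kinetochore protein CENP-C, was at -0.58. Itgb3bp, which encodes the inner kinetochore protein CENP-R, was listed at 0 in all 6 libraries and was not tested.

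The APC/C is the target of the checkpoint. Of its 16 genes, 13 fell, 1 rose and 2 did not pass, with a median of -0.27. The activator gene Cdc20 was at -2.37 (182 ± 2.55 to 35.2 ± 1.72 CPM, SD, n = 3 per group), well beyond Cdc23 (-0.83) and Anapc15 (-0.65), and Anapc16 was higher (0.25, edgeR adjusted p = 1.05e-04). Of 11 factors that recruit or silence the checkpoint, 8 fell, 2 rose and 1 did not pass (median -0.35). The dynein regulator gene Nde1 was at -1.07 and its paralogue Ndel1 at 0.72, in opposite directions. The RZZ subunit gene Kntc1 (-0.90) fell with Zwilch and Zw10. The other increase was in the phosphatase subunit gene Ppp2r5a (0.45).

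In the cohesin list, 11 of 14 fell, 1 rose and 2 did not pass (median -0.53). The separase gene Espl1 (-1.93), the sororin gene Cdca5 (-1.45) and Esco2 (-1.29) fell most, and the cohesin release factor gene Wapl was higher (0.11, edgeR adjusted p = 0.00264), a call lost without Malt1-WT replicate 2 and with scaling by library size only. Of 11 microtubule-end proteins, 9 fell, 1 rose and 1 did not pass (median -0.93). The kinesin genes Kif2c (-2.45), which encodes a microtubule depolymerase, and Kif18a (-2.27) fell most, followed by Ckap2 (-1.64), and Mapre3 was higher (0.29, edgeR adjusted p = 0.00631), a call lost without vector control replicate 1 and with DESeq2. All 13 proliferation and S-phase markers fell (median -0.73, range -2.30 to -0.20). Mki67 (-2.30), the nucleotide reductase gene Rrm2 (-1.47) and Top2a (-1.30) fell most. The 13 markers moved in the same direction as the kinetochore genes, and their part in that decrease was not tested.

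**Figure D4:**
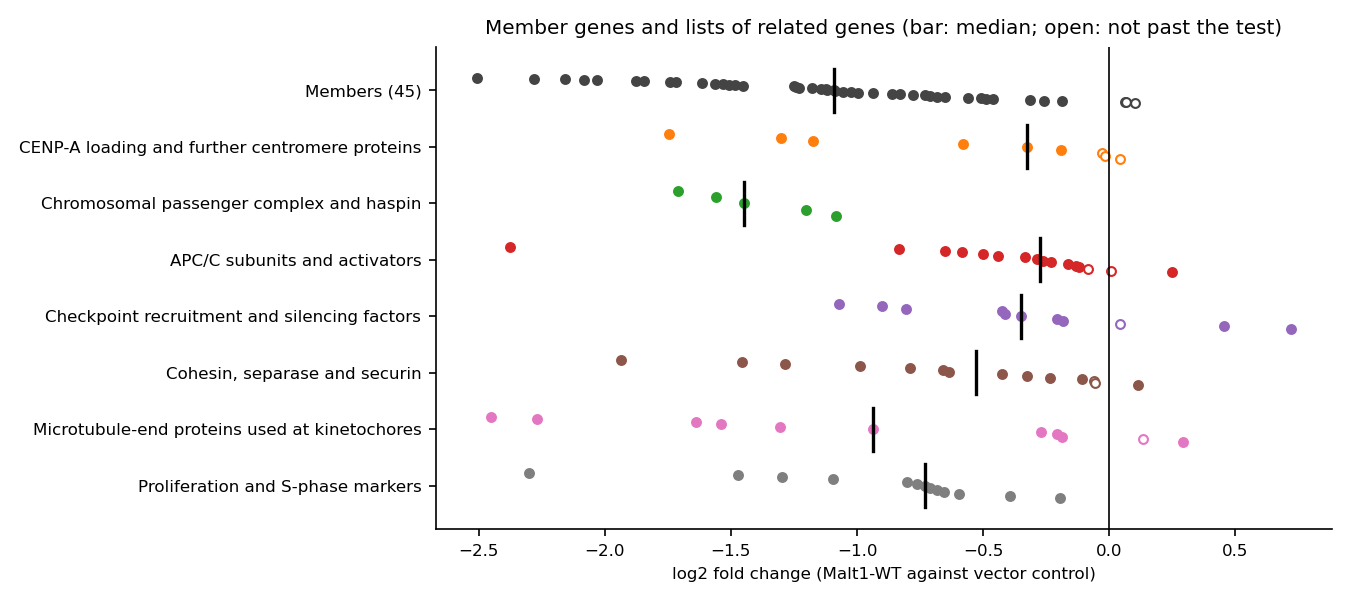
Log2 fold change (Malt1-WT against vector control) of the 45 members and of 7 lists of related genes, 1 point per tested gene, with a bar at each median and open points for genes that did not pass the test. The passenger complex has the lowest median (-1.45) and the APC/C list the one nearest 0 (-0.27), with Cdc20 far below the rest at -2.37.

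Since most members fell together, the promoters of the members were read from RefSeq (GRCm38.p6), each with 250 bases before and 50 bases from the transcription start on. The table held 47 promoters of 41 members. The promoters of the 3 largest decreases (Cenpf, Sgo2a, Nuf2) and of the smallest absolute change (Cenpj) are shown first, followed by Bub1b, Bub1 and Zwint, which were chosen after their values were seen because they contrast in the sizes of change. Capitals mark the motifs searched on both strands: the cell cycle genes homology region (CHR, TTTGAA or TTCGAA), the CCAAT box (CCAAT, or ATTGG on the other strand) and E2F-type sites (TTTGGCGC, TTTGCCGC, TTTCGCGC or TTTCCCGC). CHR elements and CCAAT boxes are known from the promoters of many genes expressed in G2 and mitosis, and E2F sites from those of G1/S genes.
Cenpf, chr1:189688037-189688336, minus strand: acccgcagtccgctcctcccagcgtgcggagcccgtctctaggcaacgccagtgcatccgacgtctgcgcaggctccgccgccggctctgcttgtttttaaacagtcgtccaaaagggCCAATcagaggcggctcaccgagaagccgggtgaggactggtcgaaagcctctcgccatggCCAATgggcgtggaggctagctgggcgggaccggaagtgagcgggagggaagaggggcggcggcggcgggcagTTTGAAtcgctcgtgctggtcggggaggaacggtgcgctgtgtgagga
Sgo2a, chr1:57995724-57996023, plus strand: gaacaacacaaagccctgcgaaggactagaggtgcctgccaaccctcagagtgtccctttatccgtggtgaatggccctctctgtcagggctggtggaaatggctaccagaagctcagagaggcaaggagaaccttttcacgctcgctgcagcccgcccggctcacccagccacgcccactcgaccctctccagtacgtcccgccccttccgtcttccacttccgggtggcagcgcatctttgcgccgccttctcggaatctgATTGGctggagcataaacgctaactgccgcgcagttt
Nuf2, chr1:169531415-169531714, minus strand: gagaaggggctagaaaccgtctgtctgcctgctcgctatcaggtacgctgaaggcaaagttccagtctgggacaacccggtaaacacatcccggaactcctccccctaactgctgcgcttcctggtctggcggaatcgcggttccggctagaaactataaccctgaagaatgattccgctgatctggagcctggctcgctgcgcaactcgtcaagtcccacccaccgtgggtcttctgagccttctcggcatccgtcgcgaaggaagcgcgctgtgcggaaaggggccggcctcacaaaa
Cenpj, chr14:56571797-56572096, minus strand: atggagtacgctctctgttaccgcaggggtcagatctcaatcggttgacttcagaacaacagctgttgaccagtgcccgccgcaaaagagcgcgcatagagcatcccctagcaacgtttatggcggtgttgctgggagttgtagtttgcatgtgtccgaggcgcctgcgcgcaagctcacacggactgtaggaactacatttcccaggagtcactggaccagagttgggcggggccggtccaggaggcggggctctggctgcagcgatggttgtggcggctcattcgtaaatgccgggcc
Bub1b, chr2:118597961-118598260, plus strand: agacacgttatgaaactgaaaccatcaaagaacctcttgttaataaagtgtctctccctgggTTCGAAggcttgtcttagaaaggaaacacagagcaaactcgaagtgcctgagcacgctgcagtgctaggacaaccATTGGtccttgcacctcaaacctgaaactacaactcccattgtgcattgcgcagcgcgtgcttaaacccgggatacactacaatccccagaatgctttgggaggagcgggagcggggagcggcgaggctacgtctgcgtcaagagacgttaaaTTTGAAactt
Bub1, chr2:127831810-127832109, minus strand: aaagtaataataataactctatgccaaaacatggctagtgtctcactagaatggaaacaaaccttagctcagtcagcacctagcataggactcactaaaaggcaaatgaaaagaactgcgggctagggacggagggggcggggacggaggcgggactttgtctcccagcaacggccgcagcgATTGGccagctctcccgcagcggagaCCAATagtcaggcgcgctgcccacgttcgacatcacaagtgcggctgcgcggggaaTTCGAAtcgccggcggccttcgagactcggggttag
Zwint, chr10:72654596-72654895, plus strand: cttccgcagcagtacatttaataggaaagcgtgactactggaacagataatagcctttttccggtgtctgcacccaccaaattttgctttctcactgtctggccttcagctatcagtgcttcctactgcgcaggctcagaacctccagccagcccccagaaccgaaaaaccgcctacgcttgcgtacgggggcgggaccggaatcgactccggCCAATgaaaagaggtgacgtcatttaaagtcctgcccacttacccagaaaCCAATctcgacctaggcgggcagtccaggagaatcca

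Positions are counted from 1 at the transcription start, with negative numbers before it. The Cenpf promoter held a CHR at 3 to 8 and CCAAT boxes starting at -132 and -71. Bub1b held a CHR at 41 to 46 and a further one at -188 to -183, and Bub1 held one at 15 to 20. The Nuf2 and Cenpj windows held none of the motifs. The part of any motif in the changes of these genes was not tested. Zwint held CCAAT boxes starting at -37 and 14 and no CHR. The Sgo2a window held a single CCAAT box on the other strand. RefSeq lists a further Sgo2a start upstream, whose window is not shown, and its Cenpj start lies 3579 bases inside the outermost GENCODE M21 start.

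Over all 47 member promoters, a CHR was present in 19 (40.4%), against 14.1% of the 12294 promoters of tested genes and 19.2% of all 32851 promoters. A CHR that lay within 50 bases of the start, a window chosen after the positions were seen, was present in 14 member promoters (29.8%) and in 3.66% of promoters of tested genes. CCAAT boxes were present in 30 member promoters (63.8% against 37.8%) and E2F-type sites in 5 (10.6% against 3.84%). A CHR and a CCAAT box occurred together in 15 (31.9% against 5.65%). Among the 23 members with a promoter that were at least 2-fold lower, 13 genes held a CHR (56.5%), as did 5 of the other 18 (27.8%). Counted by gene in the same way, the share was 16.6% of the 9611 tested genes with a promoter. These shares describe letters in a window and were not tested, and members with several starts are counted once per start.

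**Figure D5:**
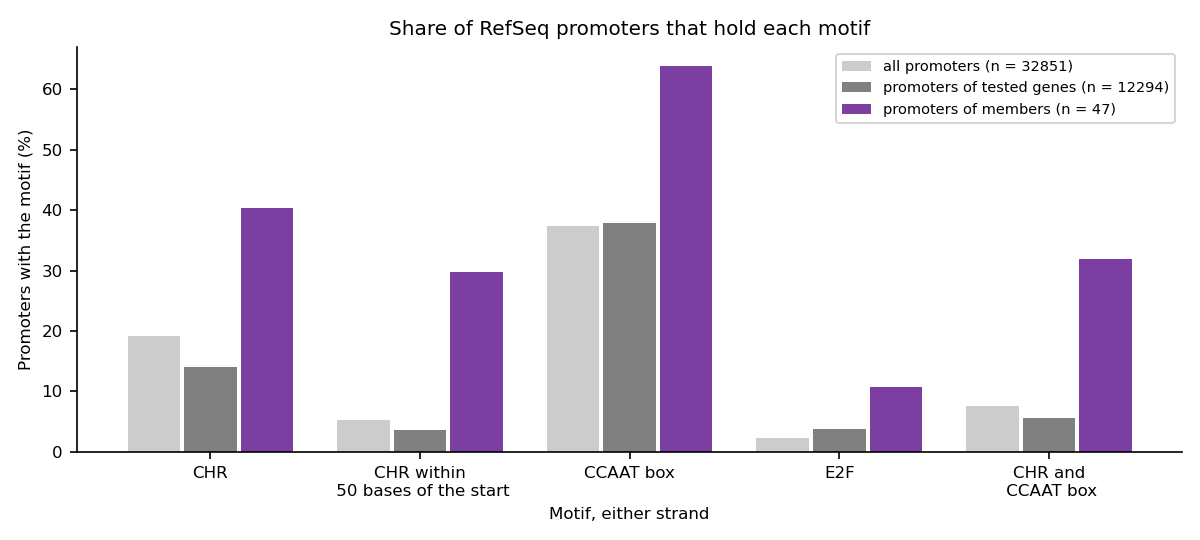
Share of 300-base RefSeq promoters (percent, bars from 0) that hold each motif on either strand, for all promoters, promoters of tested genes and the 47 promoters of members. The member bars are the tallest for each motif, with 40.4% for the CHR against 14.1% in promoters of tested genes.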

How the data were processed

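The members, listed by symbol, and the gene lists and motifs were chosen with earlier results of these data known. RNA was sequenced from 3 vector control and 3 Malt1-WT libraries of E0771 cells (a directional NEBNext kit, per the labels' protocols). The submitters' processing notes name STAR 2.7.3a, featureCounts 1.6.3, Trim Galore 0.6.0 and the build GRCm38.p6, with an annotation and strand setting not given in the sources used here. The authors deposited raw counts per gene, per the file headers, with their own log2 fold change, t statistic (a score) and p-value columns, made with a tool not given in the sources used here.

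Genes were kept by filterByExpr (minimum count 10), scaled by TMM and tested with edgeR 4.0.16 (quasi-likelihood, robust, no block) in R 4.3.3; limma 3.58.1 and DESeq2 1.42.0 were alternatives. Adjusted p-values are Benjamini-Hochberg values, called at 0.05. CPM is TMM-scaled and SE is the log2 fold change divided by the root of F. Replicate libraries were more different than counting error gives (chi-square of 2.13 to 2.87 per degree of freedom), so all 6 were kept. Positions and exon lengths (union of exons) are from GENCODE M21, so levels per kilobase are approximate. The tests were checked on simulated counts, in which far fewer genes were changed than were called in the data. There, 58% of 1.2-fold, 70% of 1.5-fold, 91.3% of 2-fold and 100% of 4-fold changes were recovered, with 15 false calls. Small changes can thus be missed. Per-library values were given for the 2 largest changes in each role group, for members that did not pass and for the extremes per kilobase; other genes were picked after their values were seen. In each related list up to 3 of the largest changes and a small minority direction were named; a gene that this rule names is not reported here.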

Additional observations from a re-analysis of the deposited data

How the results depend on the processing

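The count of lower members was 42 in 13 of the 15 alternatives, 40 where at least 100 counts in 3 libraries were required (43 members tested) and 34 in the test against a 1.5-fold change. The filter at 100 counts left out Nsl1 and Cenpp, which were both lower in the main fit. Without single libraries, members higher ranged from 0 to 1, as did the corona group (Zwint in both), the cohesin list (Wapl) and the microtubule-end list (Mapre3), and the member median ranged from -1.14 to -1.08. With library size only, the member median was -1.17, the cohesin list had 0 higher, and the Zwint log2 fold change (-0.011) and the Cenpj log2 fold change (-0.012) turned sign without passing; the median of all tested genes then moved to -0.08. DESeq2 gave 0 higher in the microtubule-end list. In the test against a 1.5-fold change, by its construction, 861 genes were lower and 1389 higher, with 1 lower in the CENP-A and CENP-B pair, 3 in CENP-A loading, 2 lower and 0 higher in the APC/C, 3 lower and 1 higher in checkpoint recruitment, 6 lower and 0 higher in cohesin, 0 higher in the microtubule-end list and 8 lower in the proliferation list. Scaling by library size only leaves out the TMM factors, which by construction shifts all log2 fold changes by a like amount. For the remaining changes the cause was not tested. Correlations of deviations between same-numbered libraries were -0.03, -0.02 and 0.02. These values showed no pairing by number but cannot exclude one. With the replicate block 42 members were lower and 0 higher, and the numbers of all tested genes lower and all tested genes higher were 4034 and 4134. Nsl1 and Cenpp, with at most 140 counts in any library, had the largest standard errors of the members (0.225 and 0.186).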
